A study of Canis lupus familiaris with 10 samples.

Results

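The apolipoprotein and lipid transport genes APOE, APOC1, APOD, CLU, ABCA1, ABCA8, ABCG1, LPL, PLTP and SMPDL3A were followed in the canine retina with advanced glaucoma. Most of their products carry or move lipids, while LPL and SMPDL3A encode enzymes. The members were taken by name, as every probe set whose only gene symbol in the array annotation is one of these 10, and all 10 genes were found, with 20 of the 42924 probe sets on the array. The neural retina of 1 eye was profiled from each of 5 dogs with spontaneous primary glaucoma and 5 healthy dogs, on 1 Affymetrix Canine genome 2.0 array per dog. The glaucoma group held 2 Shiba Inus of 5 and 14 years (glaucoma 1 and 2), 2 Basset Hounds of 5 and 7 years (glaucoma 3 and 4) and 1 Dalmatian of 9 years (glaucoma 5), with the ages of the sample labels (the study's own table gives other ages for a pair of them). All of these dogs had a closed iridocorneal angle and received drops that lower the intraocular pressure, and none had surgery. The healthy group held 5 Beagles of 4 years. No breed occurred in both groups and the youngest glaucoma dogs were older than all Beagles, so disease, breed, age and medication cannot be told apart. Values are log2 intensities after RMA, which corrects for background, equalizes the distributions of the arrays and combines the probes of each probe set. A probe set was tested where its log2 value lay above 7 in at least 2 retinas, which is how the study's methods define expression, and differences are glaucoma minus healthy.

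The retina cannot take all of its lipids from the blood directly, and glia supply neurons with cholesterol and phospholipid on particles built around apolipoproteins. ABC transporters of the cell membrane load lipid onto these particles, transfer proteins and lipases remodel them, and receptors of the LDL receptor family take them up. The same machinery removes lipid from cells that have engulfed membranes and myelin, and several of its genes are switched on by the liver X receptors, which sense oxidized cholesterol.

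SMPDL3A, APOE, ABCA8 and CLU were elevated in the glaucomatous retina, and none of the 10 genes was detected at a lower level. The minimum was passed by 16 of the 20 probe sets, covering 9 of the 10 genes, and ABCA1 did not pass it. In limma, a linear model with variances moderated across probe sets, 5 of the 16 tested probe sets were higher at an adjusted p under 0.05, compared to 7.58% of all 18416 tested probe sets. None was lower, compared to 9.4% of all tested probe sets. In the same 5 probe sets every glaucomatous retina lay above every healthy retina, a separation found in 6.82% of all tested probe sets. Counted by gene, with the tested probe set of highest mean standing for the gene, 4 of 9 genes were higher (8.04% of all 7900 genes) and 0 were lower (8.65% of all genes). Their median log2 difference was 0.42, against -0.01 over all genes. The genes were picked with results of these arrays known, so these shares describe the 10 genes and are no test of them as a group.

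**Figure D1:**
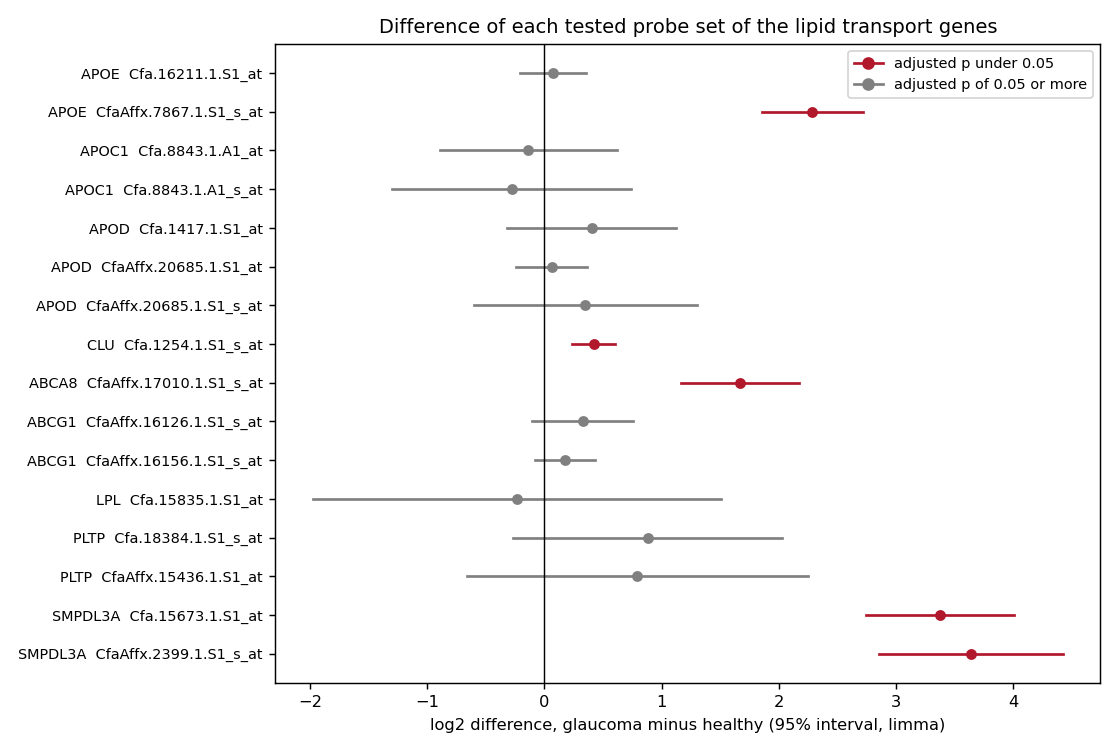
Log2 difference between glaucoma and healthy retinas (horizontal axis, points) with its 95% interval from limma (lines) for the 16 tested probe sets (vertical axis), red where the adjusted p is under 0.05. The intervals of SMPDL3A, APOE (CfaAffx.7867.1.S1_s_at), ABCA8 and CLU lie above 0, and LPL has the widest interval, from -1.98 to 1.51.

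Some facts about the arrays bear on these genes. The median intensity of an array was 77.1 to 80.7, and each array had 15910 to 16315 probe sets above log2 7. Rod markers were well detected, as the label of retina requires, with 13 of the 13 annotated markers tested. The retina of glaucoma 1 stood apart, with rod markers at a median log2 deviation of -2.94 from the healthy mean (-0.60 to 0.08 in the other glaucomatous retinas) and markers of the retinal pigment epithelium (RPE), the pigmented layer behind the photoreceptors, at 2.79 (-0.22 to 0.51). RPE markers were also high in healthy 4, at 1.49, compared to -0.48 to -0.28 in the other healthy retinas. Markers of microglia and macrophages were elevated in 11 of 14 tested genes (8.04% of all genes) and lower in 0 (8.65% of all genes). Those that did not pass in limma were P2RY12 (log2 difference -0.37, adjusted p = 0.52), TMEM119 (0.14, adjusted p = 0.35) and MRC1 (0.48, adjusted p = 0.15). The summed intensity of the microglial markers ranged from 11171 to 24905 in glaucoma and from 2760 to 4027 in the healthy retinas, while P2RY13, ITGAM and FCER1G did not reach the minimum. Fewer markers of Müller glia and astrocytes were called, with 2 of 10 Müller glia markers higher (summed intensity 42618 to 63950 in glaucoma and 41248 to 53192 in the healthy retinas) and 3 of 6 astrocyte markers (2838 to 6245 and 2793 to 3644). The called genes were GFAP (log2 difference 2.46), ALDH1L1 (0.98), CD44 (0.84) and AQP4 (1.81), which is in both lists. Of the 6 tested oligodendrocyte and myelin markers, 1 was higher, MAL (log2 difference 3.30, adjusted p = 0.00019 from limma), and 5 did not pass. The median log2 deviation of astrocyte markers was 0.53 to 1.91 in glaucoma and -0.09 to 0.16 in the healthy retinas. Of the retinal ganglion cell markers, 8 of 12 were lower and 1 was higher, although the ganglion cell transcription factors POU4F1, POU4F2 and POU4F3 were below the minimum. In whole retina, fewer cells of a type and less RNA per cell cannot be told apart, and neither can more of them.

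APOE, the main lipid carrier secreted by glia and macrophages and a ligand of the LDL receptor family, was elevated 4.87-fold by 1 of its probe sets. For CfaAffx.7867.1.S1_s_at the log2 values were 12.39, 11.62, 11.22, 11.69 and 11.84 in glaucoma 1 to 5. They were 9.70, 9.33, 9.31, 9.31 and 9.69 in healthy 1 to 5. The lowest glaucomatous retina lay well above the highest healthy one, and the means of 11.75 ± 0.42 and 9.47 ± 0.21 (SD, n = 5 each) differed by 2.28 (SE 0.20, adjusted p = 7.1e-05 from limma). A second probe set, Cfa.16211.1.S1_at, showed no such separation, with 7.05 ± 0.25 in glaucoma and 6.98 ± 0.10 in the healthy retinas, a difference of 0.07 with a 95% interval of -0.21 to 0.35 (adjusted p = 0.73 from limma). It straddled the minimum, with 5 of 10 retinas above it. The third, Cfa.16211.2.S1_at, stayed below the minimum in every retina and had means of 5.95 and 5.98. The increase of APOE thus rests on 1 of its 3 probe sets, and the annotation does not say which part of the transcript each probe set covers.

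APOC1, a small apolipoprotein that exchanges between particles and hinders their uptake, lies next to APOE on the chromosome in the RefSeq annotation of the dog, with APOC4 on its other side and TOMM40 beyond APOE. Unlike its neighbor it was not called. The log2 values of Cfa.8843.1.A1_at were 11.82, 13.78, 13.51, 13.94 and 13.69 in glaucoma 1 to 5 and 13.41, 13.53, 13.67, 13.45 and 13.37 in healthy 1 to 5. Among the glaucomatous retinas 4 of 5 thus lay within or above the healthy range, and glaucoma 1 lay far below it. The mean difference of -0.14 had a 95% interval of -0.89 to 0.62 (adjusted p = 0.82 from limma). The second probe set, Cfa.8843.1.A1_s_at, gave the same picture, at 10.86 in glaucoma 1 and 13.30 to 13.72 in the other glaucomatous retinas, compared to 13.02 to 13.49 in the healthy retinas. Without glaucoma 1 the differences of both probe sets turned positive, at 0.24 and 0.25, but failed the test (adjusted p = 0.17 and 0.22 from limma). This is the retina in which rod markers were at -2.94, and the part of that loss in the APOC1 values was not tested.

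APOD, a lipocalin that binds small hydrophobic molecules such as arachidonic acid, varied more among the glaucomatous retinas than between the groups. By CfaAffx.20685.1.S1_s_at the log2 values were 9.23, 7.60, 8.82, 6.46 and 7.75 in glaucoma 1 to 5 and lay between 7.45 and 7.95 in the healthy retinas. Glaucoma 1 and 3 were above all healthy retinas and glaucoma 4 was below them. The difference of 0.35 had a 95% interval of -0.60 to 1.30 (adjusted p = 0.62 from limma), and without glaucoma 1 it was 0.034 (adjusted p = 0.96). Cfa.1417.1.S1_at placed the same dogs high and low, at 8.64 in glaucoma 1, 8.21 in glaucoma 3 and 6.57 in glaucoma 4, with a difference of 0.40 (adjusted p = 0.42 from limma) that was 0.15 without glaucoma 1 (adjusted p = 0.74). The probe set with the highest mean, CfaAffx.20685.1.S1_at, did not show this spread, with 8.07 to 8.69 in glaucoma and 8.14 to 8.55 in the healthy retinas and a difference of 0.06 (95% interval -0.24 to 0.36, adjusted p = 0.80 from limma). It was lowest in glaucoma 1, where the other probe sets of the gene were highest.

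CLU encodes clusterin, also known as apolipoprotein J, a secreted chaperone that binds misfolded proteins and travels on lipoprotein particles. Its log2 values were 14.61, 14.49, 14.47, 14.60 and 14.58 in glaucoma 1 to 5 and 14.20, 14.06, 14.22, 14.10 and 14.06 in healthy 1 to 5. The groups did not overlap, and the means of 14.55 ± 0.06 and 14.13 ± 0.07 (SD, n = 5 each) differed by 0.42, a 1.34-fold increase (SE 0.08, adjusted p = 0.0064 from limma). The increase was small and uniform between dogs. The probe set sat at the upper end of the scale, as the brightest or the next brightest of all 42924 probe sets on every glaucoma array and between rank 10 and 19 on the healthy arrays, and the brightest value on any array ranged from 14.50 to 14.73. Whether differences are compressed at that end of the scale was not tested. When the model also held a measure of RNA degradation, described with the pathway lists, the difference of CLU was again 0.42 but did not pass (adjusted p = 0.057 from limma), while it passed with a second measure of the same kind (0.42, adjusted p = 0.0061).

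**Figure D2:**
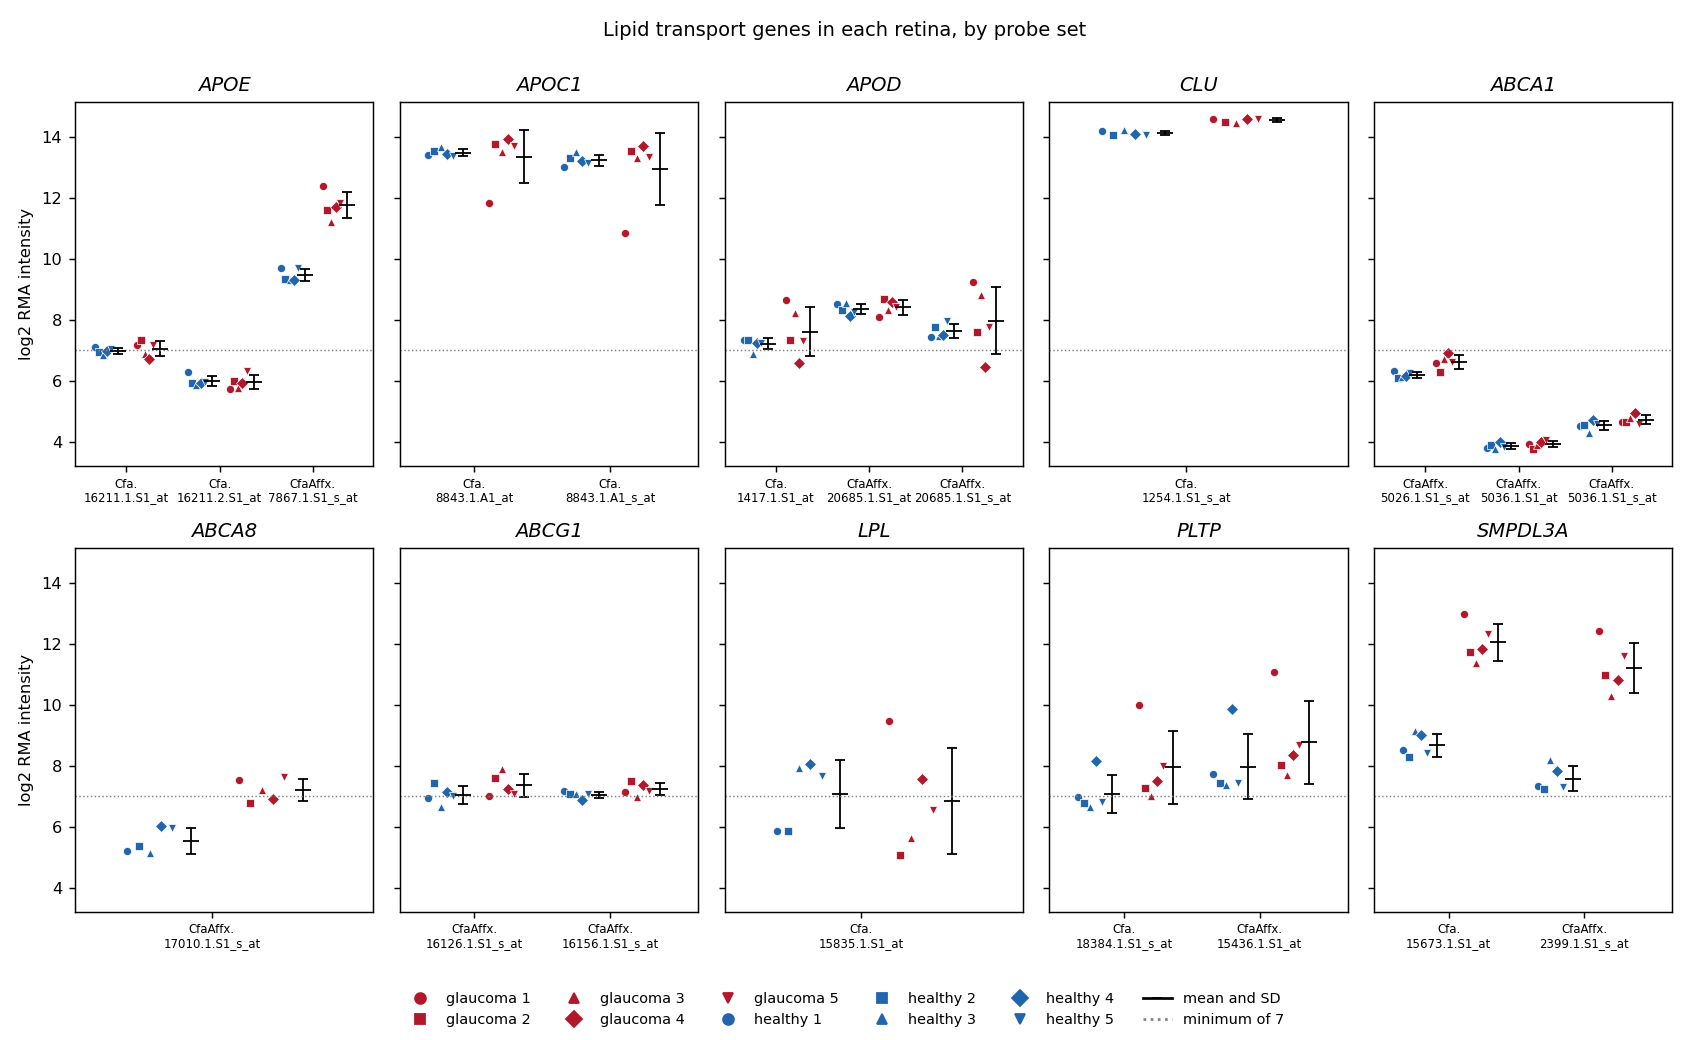
Log2 RMA intensity (vertical axis) of every probe set (horizontal axis) of the 10 genes in each retina, healthy in blue and glaucoma in red, with the symbol shape giving the dog, black marks the mean and SD of 5 dogs and the dotted line the minimum of 7. Red and blue points are apart in SMPDL3A, ABCA8, CLU and 1 probe set of APOE, and glaucoma 1 (red circles) is far from the other glaucomatous retinas in APOC1 and PLTP.

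Of the 3 transporters, ABCA8 was elevated, ABCG1 was not called and ABCA1 was too dim to be tested. ABCA8 is a member of the ABCA family expressed in brain and liver that takes part in the export of cholesterol and other lipids. Its single probe set had log2 values of 7.52, 6.77, 7.19, 6.91 and 7.62 in glaucoma 1 to 5 and of 5.21, 5.38, 5.12, 6.01 and 5.97 in healthy 1 to 5. All glaucomatous retinas were higher than all healthy retinas, with means of 7.20 ± 0.37 and 5.54 ± 0.42 (SD, n = 5 each) and a difference of 1.67, or 3.17-fold (SE 0.23, adjusted p = 0.00078 from limma). No healthy retina was above the minimum, so ABCA8 entered the test only through the glaucomatous retinas. The fold is thus against dim healthy values, and ABCA8 counts among the 5 probe sets and 4 genes above with that limit. It was no longer tested when values above the minimum were required in 5 retinas. Tested without any minimum, it was called as well.

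ABCG1 passes cholesterol to particles that already carry lipid. Its probe set CfaAffx.16126.1.S1_s_at had log2 values of 6.99 to 7.89 in glaucoma and 6.64 to 7.44 in the healthy retinas, which overlapped, and a difference of 0.33 with a 95% interval of -0.10 to 0.76 (adjusted p = 0.28 from limma). For CfaAffx.16156.1.S1_s_at the difference was 0.18, with an interval of -0.08 to 0.43 (adjusted p = 0.32 from limma). ABCA1, which loads cholesterol and phospholipid onto lipid-poor APOA1 and APOE, stayed below the log2 minimum in all 10 retinas by each of its 3 probe sets. The brightest, CfaAffx.5026.1.S1_s_at, had log2 values of 6.57, 6.29, 6.70, 6.92 and 6.61 in glaucoma 1 to 5 and 6.32, 6.09, 6.13, 6.17 and 6.25 in healthy 1 to 5. Glaucoma 2 fell within the healthy range and the other glaucomatous retinas lay above it. When all probe sets were tested with no minimum, this difference of 0.43 passed (adjusted p = 0.037 from limma), while the other probe sets of ABCA1, at 0.19 (adjusted p = 0.31) and 0.08 (adjusted p = 0.68), did not.

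LPL and PLTP remodel lipoprotein particles in plasma and tissue. LPL, the lipase that frees fatty acids from triglyceride-rich particles, had the largest SD of the 10 genes in both groups, at 1.73 in glaucoma and 1.12 in the healthy retinas. Its log2 values were 9.45, 5.08, 5.61, 7.55 and 6.54 in glaucoma 1 to 5. In the healthy retinas they were 5.87, 5.86, 7.93, 8.07 and 7.67, so healthy 1 and 2 lay well below the other Beagles of the same age. The difference of -0.23 had a 95% interval of -1.98 to 1.51 (adjusted p = 0.87 from limma), which is too wide to exclude a 2-fold change in either direction, and it was -0.89 without glaucoma 1 (adjusted p = 0.35) and 0.013 without healthy 4 (adjusted p = 0.99).

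PLTP, which moves phospholipid between particles, gave similar values by both of its probe sets and was set apart by 1 dog of each group. By CfaAffx.15436.1.S1_at the log2 values were 11.08, 8.02, 7.69, 8.34 and 8.67 in glaucoma 1 to 5 and 7.73, 7.43, 7.38, 9.87 and 7.44 in healthy 1 to 5. Glaucoma 1 and healthy 4 had the highest values of their groups, and single dogs moved the difference. The difference of 0.79 had a 95% interval of -0.66 to 2.25 (adjusted p = 0.44 from limma), and by Cfa.18384.1.S1_s_at it was 0.88 (95% interval -0.26 to 2.02, adjusted p = 0.27 from limma). Glaucoma 1 and healthy 4 were also the retinas with the highest median of RPE markers. Summed over the 17 tested RPE markers, intensity ranged from 14161 to 68567 in glaucoma and from 9715 to 46204 in the healthy retinas, and MLANA was the only RPE marker on the array below the minimum. Markers of fibroblasts and meninges were also high in glaucoma 1, with a summed intensity of 13433 over 5 tested markers, followed by 6335 in glaucoma 5 and 5703 in healthy 4, compared to 1933 to 3528 in the other retinas, while COL1A1, COL3A1, LUM and DCN were below the minimum. Their median deviation was 2.43 in glaucoma 1, 1.39 in glaucoma 5 and -0.09 in healthy 4. Without glaucoma 1 the difference of CfaAffx.15436.1.S1_at was 0.21 (adjusted p = 0.79 from limma), without healthy 4 it was 1.27 (adjusted p = 0.18), and without both it was 0.69 and passed (adjusted p = 0.048). For the other probe set these differences were 0.37 (adjusted p = 0.44 from limma), 1.15 (adjusted p = 0.17) and 0.64 (adjusted p = 0.058). The part of RPE or fibroblasts in the PLTP values was not tested.

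SMPDL3A had the largest difference of the 10 genes. It encodes a secreted phosphodiesterase related to acid sphingomyelinase, which macrophages induce when they are loaded with cholesterol. By Cfa.15673.1.S1_at the log2 values were 12.97, 11.72, 11.38, 11.83 and 12.32 in glaucoma 1 to 5 and 8.51, 8.30, 9.15, 9.00 and 8.40 in healthy 1 to 5. The means of 12.04 ± 0.62 and 8.67 ± 0.38 (SD, n = 5 each) differed by 3.37, a 10.4-fold increase (SE 0.29, adjusted p = 7.1e-05 from limma). The gap between the lowest glaucomatous and the highest healthy retina was wider than the range within either group. The second probe set, CfaAffx.2399.1.S1_s_at, had values of 12.41, 10.99, 10.27, 10.81 and 11.59 in glaucoma and 7.34, 7.24, 8.18, 7.82 and 7.31 in the healthy retinas. Its difference was 3.64, or 12.5-fold (SE 0.36, adjusted p = 0.00012 from limma). Both probe sets were highest in glaucoma 1 and lowest in glaucoma 3 among the glaucomatous retinas, and highest in healthy 3 among the healthy ones.

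The glaucoma dogs came in a similar order for APOE, SMPDL3A and PLTP, the last not called, but in other orders for CLU and ABCA8. From highest to lowest, APOE (CfaAffx.7867.1.S1_s_at), SMPDL3A (Cfa.15673.1.S1_at) and both probe sets of PLTP ran from glaucoma 1 over 5, 4 and 2 to glaucoma 3. Expressed as log2 deviation from the healthy mean, SMPDL3A ranged in that order over 4.29, 3.65, 3.16, 3.05 and 2.71, and APOE over 2.92, 2.37, 2.22, 2.15 and 1.75. The median of microglia and macrophage markers followed the same order, with 2.57, 2.52, 2.05, 1.60 and 1.53. The median of RPE markers exchanged the positions of glaucoma 4 and 2, at 0.12 and 0.19, and so did the second SMPDL3A probe set, CfaAffx.2399.1.S1_s_at, at 3.24 and 3.41. Glaucoma 1 and 5 also had the highest medians of fibroblast and meninges markers (2.43 and 1.39) and of Müller glia markers (1.64 and 0.51). They had the lowest medians of rod markers (-2.94 and -0.60). Astrocyte markers were highest in glaucoma 1 (1.91) but at 0.53 in glaucoma 5. CLU ran from glaucoma 1 over 4, 5 and 2 to glaucoma 3. ABCA8 ran from glaucoma 5 over 1, 3 and 4 to glaucoma 2. Both probe sets of APOC1, which was not called, ran from glaucoma 4 over 2, 5 and 3 to glaucoma 1. These orders come from 5 arrays and were noticed in the data, so they are given as a description. The part of microglia, macrophages or any other cell type in the elevated genes was not tested. Glaucoma 1 was the highest glaucomatous retina in 9 of the 16 tested probe sets and the lowest in 4.

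**Figure D3:**
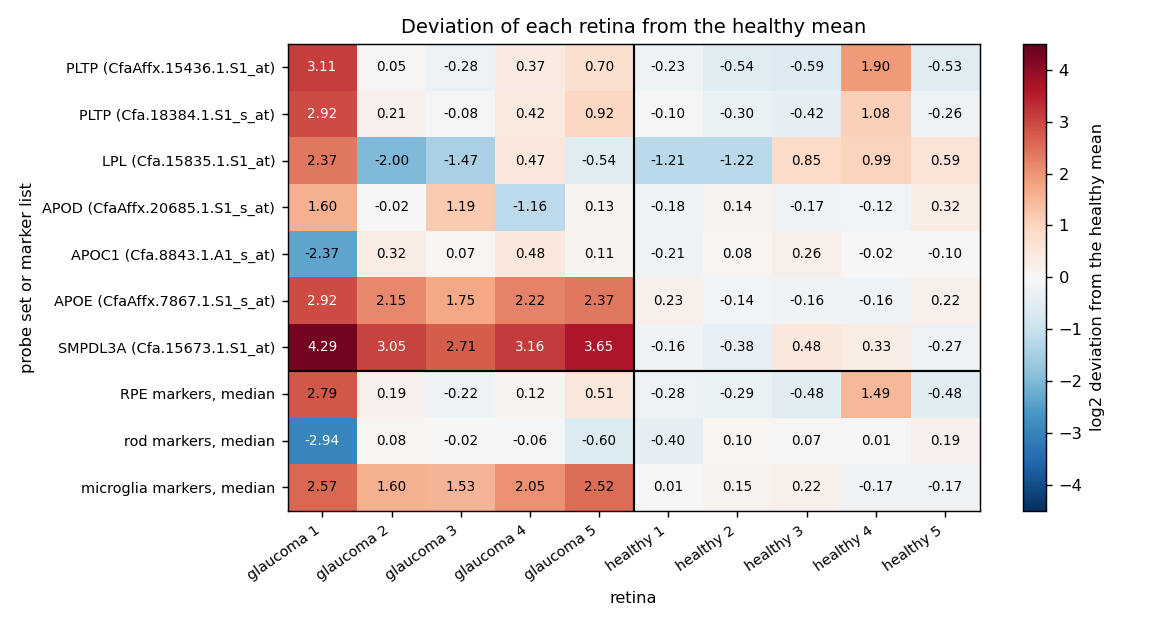
Log2 deviation from the healthy mean (color, with the value printed) of 7 probe sets of the lipid transport genes and of the median of 3 marker lists (vertical axis) in each of the 10 retinas (horizontal axis). The APOE probe set shown (CfaAffx.7867.1.S1_s_at) and SMPDL3A are raised in all 5 glaucomatous retinas. PLTP is raised most in glaucoma 1 and healthy 4, the retinas in which RPE markers are at 2.79 and 1.49. APOC1 is at -2.37 in glaucoma 1.

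Genes with the most similar pattern over all 10 arrays were sought for the 4 called genes by Pearson's r of log2 values, among the probe sets that represent a gene. For APOE these were LAPTM5 (r = 0.987), a lysosomal membrane protein of hematopoietic cells, FCRLA (r = 0.984), an Fc receptor-like protein, and SMPDL3A itself (r = 0.975). For SMPDL3A they were the complement component C1QC (r = 0.985), the ferroxidase ceruloplasmin, CP (r = 0.985), and FCRLA (r = 0.984). CLU was closest to the G protein subunit GNAI2 (r = 0.990), the transcription factor STAT3 (r = 0.989) and FCRLA (r = 0.985), and ABCA8 to CP (r = 0.962), SPRING1 (r = 0.957), a regulator of SREBP processing, and BRK1 (r = 0.956), a subunit of the WAVE complex. All of these genes had higher means in glaucoma, from a log2 difference of 0.41 for BRK1 to 3.51 for CP. The coefficients therefore reflect the step between the groups and the arrays that the genes share, and they carry no test.

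Beyond the 10 genes, 171 further genes of lipoprotein and lipid handling were listed in 6 classes, and 90 of them were tested. Of these, 12 were higher, 6 were lower and 72 did not pass, with a median log2 difference of 0.11, beside 8.04% higher and 8.65% lower of all genes. Of the higher genes, 3 (SAA1, LCAT and PLA2G7) had no healthy retina above the minimum. Of the lower genes, 3 (APOA1, ABCD2 and LRP12) had no glaucomatous retina above it. Each of these entered the test only through the group where it was high. The counts here and by class hold with that limit. The count of higher genes depended on single arrays and was 3 without healthy 2, 5 without glaucoma 5, healthy 3 or healthy 5, and 6 without healthy 1, whereas that of lower genes was 10 without glaucoma 1. RNA degradation raises the 3' over the 5' signal of a transcript, and for the array's actin and GAPDH controls this log2 ratio was 0.94 ± 0.14 in glaucoma and 1.19 ± 0.22 in the healthy retinas (SD, 5 dogs each; p = 0.056 by a two-sided exact permutation test). With this ratio in the model only 1 of the listed genes was higher and 2 were lower. APOE, SMPDL3A and ABCA8 still passed in that model, with log2 differences of 2.14, 3.05 and 1.40 for their representing probe sets. Over all tested probe sets, that model lowered the calls from 1396 to 408 higher and from 1732 to 522 lower. A second ratio of the same kind raised them instead, to 1746 higher and 2030 lower.

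Among other apolipoproteins and proteins of HDL particles, 2 of 9 tested genes were higher (8.04% of all genes), 1 was lower (8.65% of all genes) and 6 did not pass. SAA1, an acute phase apolipoprotein, rose by 3.93 on the log2 scale (SE 0.88, adjusted p = 0.012 from limma), from 4.90 to 6.14 in the healthy retinas to 11.12, 6.79, 8.80, 8.43 and 12.41 in glaucoma 1 to 5. Its spread in glaucoma was far larger than that of APOE or SMPDL3A, with the highest value in the Dalmatian. APOA1, the main protein of HDL and the partner of ABCA1, fell, from 8.02 ± 0.52 in the healthy retinas to 6.31 ± 0.33 in glaucoma (SD, n = 5 each, difference -1.71, adjusted p = 0.0011 from limma). SAA1 was tested only through the glaucomatous and APOA1 only through the healthy retinas, as were LCAT and PLA2G7 and, on the healthy side, ABCD2 and LRP12, so that each of these differences is against values below the minimum. PON2, an intracellular paraoxonase, rose by 0.60 (adjusted p = 0.031 from limma, not called in 11 of 25 alternatives), and APOOL, a protein of mitochondrial membranes, differed by -0.33 (adjusted p = 0.084).

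Lipoprotein receptors were higher in 3 of 17 tested genes (8.04% of all genes) and lower in 1 (8.65% of all genes), with 13 that did not pass. TREM2, a receptor of microglia and macrophages that binds lipids and APOE, rose by 1.32 (SE 0.20, adjusted p = 0.0015 from limma), with no overlap between groups. LRP1, a large receptor of the LDL receptor family that takes up APOE particles, rose by 0.62 (adjusted p = 0.022 from limma, not called in 5 of 25 alternatives). LRP10 rose by 0.54 (adjusted p = 0.049 from limma, not called in 14 of 25 alternatives). LRP12 fell by 0.76 (adjusted p = 0.0059). VLDLR, a receptor for APOE and reelin, differed by -0.61 (adjusted p = 0.28), with its lowest value of 8.19 in glaucoma 1.

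In the class of lipases and lipoprotein processing 4 of 12 tested genes were higher (8.04% of all genes), 0 were lower and 8 did not pass. When all probe sets were tested with no minimum, 2 were higher. LCAT, which esterifies cholesterol on particles, rose by 1.30 (adjusted p = 0.032 from limma, not called in 7 of 25 alternatives). LPCAT3, which remodels membrane phospholipids, rose by 0.81 (adjusted p = 0.040 from limma, not called in 13 of 25 alternatives). ANGPTL4, a secreted inhibitor of LPL, rose by 0.60 (SE 0.14, adjusted p = 0.014 from limma). ANGPTL4 was between 7.37 and 8.08 in glaucoma and between 7.01 and 7.16 in the healthy retinas, so it separated the groups that LPL itself did not. The fourth was PLA2G7, named here to complete the count. MGLL, a lipase of monoglycerides, differed by -0.38 (adjusted p = 0.64). Without glaucoma 1 and healthy 4, only 1 gene of this class was higher and 1 was lower.

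**Figure D4:**
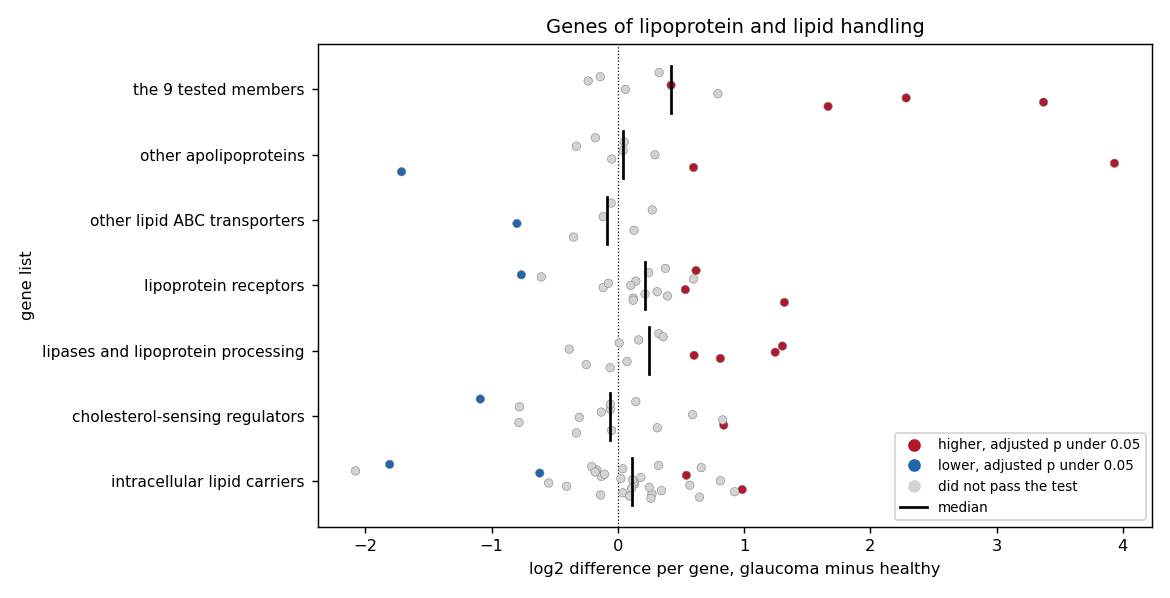
Log2 difference per gene between glaucoma and healthy retinas (horizontal axis) for the 9 tested members and for 6 classes of further lipid genes (vertical axis), with red for higher and blue for lower at an adjusted p under 0.05, grey for genes that did not pass, and a black line for the median. Medians of the 6 classes lie between -0.08 and 0.25.

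The counts in the remaining classes are likewise to be read beside 8.04% higher and 8.65% lower of all genes. Of 6 other tested ABC transporters of lipids, none rose. ABCD2, a peroxisomal transporter of very long chain fatty acids, fell by 0.80 (adjusted p = 0.022 from limma, not called in 6 of 24 alternatives). ABCA4, the retinoid transporter of photoreceptor outer segments, differed by -0.35 (adjusted p = 0.39). Of 14 cholesterol-sensing regulators, CYP27A1, which makes an oxysterol that activates liver X receptors, rose by 0.84 (adjusted p = 0.023 from limma, not called in 7 of 25 alternatives). RXRG, a retinoid X receptor found in cones, fell by 1.09 (adjusted p = 0.0033 from limma). CYP7B1, an enzyme of oxysterol breakdown, differed by 0.83 and did not pass (adjusted p = 0.063). Both liver X receptor genes were tested and did not pass, with log2 differences of -0.13 for NR1H2 (adjusted p = 0.46) and 0.31 for NR1H3 (adjusted p = 0.39).

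Intracellular lipid carriers were higher in 2 of 32 tested genes and lower in 2. NPC2, which binds cholesterol in lysosomes, rose by 0.99 (adjusted p = 0.030 from limma, not called in 8 of 25 alternatives). OSBPL11 rose by 0.54 (adjusted p = 0.021 from limma, not called in 6 of 25 alternatives). FABP3, a cytosolic fatty acid carrier, fell from 9.38 ± 0.13 in the healthy retinas to 7.58 ± 0.67 in glaucoma (SD, n = 5 each, difference -1.81, adjusted p = 0.0014 from limma), and GRAMD1A, which carries cholesterol from the cell membrane to the endoplasmic reticulum, fell by 0.62 (adjusted p = 0.0077). FABP4, a fatty acid carrier of adipocytes, macrophages and endothelium, had the largest mean difference of the class at -2.08, but ranged from 5.10 to 10.34 in glaucoma and from 7.74 to 10.68 in the healthy retinas and did not pass (adjusted p = 0.13).

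The calls on the 10 genes were repeated without single dogs and without glaucoma breeds, whereas all comparisons used Beagles as the healthy dogs. Leaving out any 1 of the 10 retinas left 5 probe sets called higher and 0 lower, with the adjusted p of APOE at most 0.00044, of SMPDL3A at most 0.00069, of ABCA8 at most 0.0034 and of CLU at most 0.024 (limma). Without the Shiba Inus or without the Basset Hounds the counts were again 5 and 0. Without glaucoma 1 and healthy 4 the log2 differences were 2.08 for APOE, 3.22 and 3.40 for SMPDL3A, 1.70 for ABCA8 and 0.40 for CLU, and the count of higher probe sets was 6 with PLTP. The exact Wilcoxon rank sum test cannot give a p below 0.0079 for 5 against 5 dogs. After adjustment over all probe sets its smallest value was 0.053, so none of the 10 genes passed by it. The study's methods name this test together with SAM, a permutation method that was not run here. The study lists APOE among its elevated genes by the same probe set, CfaAffx.7867.1.S1_s_at, on these same arrays, so the listing is no separate evidence. It required a minimum fold change, which was not required here.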

How the data were processed

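RNA of the neural retina of 10 dogs was hybridized to 10 Affymetrix Canine genome 2.0 arrays. The authors background-corrected, normalized and summarized the arrays by RMA and deposited linear intensities, 1 value per probe set and array; 111 array control probe sets were left out. Replicates are separate dogs. The number of arrays limits the precision, and array intensities have no read depth. The log2 of the deposited intensities was tested with limma 3.58.1 in R 4.3.3 on all 18416 probe sets above log2 7 in at least 2 retinas, with Benjamini-Hochberg adjustment over all of them and a threshold of 0.05 without a minimum fold. The tested probe set of highest mean stood for a gene. The annotation of the platform gave 29254 probe sets 1 gene symbol, 439 several and 13231 none, and 27680 matched the RefSeq table of assembly UU_Cfam_GSD_1.0 by gene ID with no symbol changed.

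The 10 genes, the pathway lists and the marker lists were chosen with earlier results of these data known. All members are described. From each pathway list the up to 3 genes with the smallest adjusted p were named in each direction, with the gene of the largest difference that did not pass. PLA2G7, NR1H2 and NR1H3 were named in addition, after their values were seen. The alternatives were other filters, normalizations between arrays, variance models, array weights, the Wilcoxon test, a replicate block, age or a 3' to 5' ratio as covariate, breeds and single arrays left out, and the mean over probe sets of a gene. Leaving out glaucoma 1 with healthy 4 and the use of a second 3' to 5' ratio were chosen after seeing the data. The replicate numbers do not pair the dogs. The scripts were tested on simulated data.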

Additional observations from a re-analysis of the deposited data

Results flagged for a closer look

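Within groups of 5 retinas, 10 of 50 sets of values had 1 retina far from the others by Dixon's test at the 95% level. For separate sets chance gives about 1 in 20. These sets share retinas and genes, so the count repeats the same outlying retinas and is no test. Of these, 6 lay in glaucoma 1. APOC1 was low there, at 11.82 by Cfa.8843.1.A1_at (13.51 to 13.94 in the other glaucomatous retinas) and at 10.86 by Cfa.8843.1.A1_s_at (13.30 to 13.72). PLTP was high there by CfaAffx.15436.1.S1_at, at 11.08 (7.69 to 8.67). In the same retina the median log2 deviation from the healthy mean was 1.64 for Müller glia markers (0.09 to 0.51 in the others), 2.79 for RPE markers (-0.22 to 0.51) and -2.94 for rod markers (-0.60 to 0.08). Healthy 4 was high in PLTP, at 8.15 by Cfa.18384.1.S1_s_at (6.65 to 6.97 in the other healthy retinas) and 9.87 by CfaAffx.15436.1.S1_at (7.38 to 7.73), and its RPE markers were at 1.49 (-0.48 to -0.28). APOD was low in healthy 3 by Cfa.1417.1.S1_at, at 6.89 (7.25 to 7.34). The part of RPE, rods or Müller glia in them was not tested.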

How the results depend on the processing

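For the 16 tested probe sets of the 10 genes, 355 of 383 values under the alternatives kept direction and side of the threshold, 7 lost a call, 1 gained one and 20 reversed. The 7 lost calls were all 5 under the Wilcoxon test (0 probe sets, genes or pathway genes in either direction, with 2171 probe sets higher and 2670 lower at an unadjusted p under 0.05) and those of CLU with the replicate block (adjusted p = 0.055) and with the 3' to 5' ratio (adjusted p = 0.057), both limma. Over all alternatives the adjusted p of APOE (CfaAffx.7867.1.S1_s_at) ranged from 5e-06 to 0.053. Every reversed value belongs to a difference that did not pass. With array weights these were APOC1 (0.19 and 0.16), APOD (-0.036 by Cfa.1417.1.S1_at and -0.29 by CfaAffx.20685.1.S1_s_at) and APOE Cfa.16211.1.S1_at (-0.017). With age as a covariate they were LPL (0.89), APOE Cfa.16211.1.S1_at (-0.10), ABCG1 CfaAffx.16156.1.S1_s_at (-0.00046), APOD CfaAffx.20685.1.S1_at (-0.14) and MGLL (0.088). Without the Shiba Inus they were APOC1 (0.23 and 0.22) and APOE Cfa.16211.1.S1_at (-0.059), without the Basset Hounds MGLL (0.11), and without glaucoma 1 and healthy 4 APOC1 (0.23 and 0.24). Leaving out single retinas gave -0.89 to 0.21 for LPL, -0.29 to 0.24 and -0.47 to 0.25 for APOC1, and -0.0086 to 0.15 for APOD CfaAffx.20685.1.S1_at. The pathway genes, 12 higher and 6 lower, numbered 3 to 13 and 5 to 10 when single retinas were left out, 18 and 11 with array weights, 6 and 8 with the replicate block, 11 and 3 with age and 1 and 2 with the 3' to 5' ratio. Of the named pathway genes, LRP10 lost its call in 14, LPCAT3 in 13 and PON2 in 11 of 25 alternatives. NPC2 lost it in 8, CYP27A1 and LCAT in 7, OSBPL11 in 6, LRP1 in 5 and GRAMD1A in 4 of 25. ABCD2 lost it in 6 of 24. Fewer losses were seen for ANGPTL4 and LRP12 (3), RXRG and SAA1 (2), and APOA1, FABP3 and TREM2 (1). The replicate numbers gave no pairing, with correlations of same-numbered deviations from -0.24 to 0.07 and 0 of 5 glaucoma arrays closest to their own number; the block left 4 member probe sets and 3 genes higher and moved all calls from 1396 to 943 higher and from 1732 to 1114 lower. The 3' to 5' ratio moved them to 408 and 522, whereas the second 3' to 5' ratio moved them to 1746 and 2030. Array weights moved them to 2095 and 2811. The cause of these shifts was not tested. ABCA1 and 1 probe set of APOE are limited by signal near background.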
